A study of Mus musculus with 12 samples.

Results

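The 40 cell cycle and DNA replication genes described here were taken from a list and fall into 3 role groups: 14 replication genes, 13 genes of cyclins, cyclin-dependent kinases (CDKs) and E2f1, and 13 mitosis genes. They are 40 of the 55536 genes of the annotation. RNA-seq was done on cultured mouse oligodendrocyte precursor cells (OPCs), which divide and later mature into myelinating oligodendrocytes. Brains of pups of both sexes, aged P4-P6, were pooled and the cells isolated either by FACS for Sox10-GFP or by MACS for CD140a, and which of these was used is not given per library. In the study's Sox10:Cre-RCE:LoxP (EGFP) mice, Cre driven by Sox10 switches on EGFP in the whole oligodendrocyte lineage, so the reporter marks OPCs and their progeny alike. All groups were grown with PDGFaa (10 ng/ml in the labels) and bFGF (20 ng/ml), both of which drive OPC division. Cells were left untreated (Ctr), or received 1 µM dexamethasone, a synthetic glucocorticoid (Dexa), or IFN-γ, a cytokine of T cells and NK cells (IFNg, 100 ng/ml), for 48 h. The labels also carry the mouse model tag EAE, although no immunization is described for these pups. There were 4 libraries a group, made from different litters, and the table of Dexa replicate 3 listed only 33.7% of the transcripts. Fits over all genes therefore held 11 libraries, 4 Ctr, 3 Dexa and 4 IFNg.

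A cell commits to division when D-type cyclins with CDK4 and CDK6, and then cyclin E with CDK2, inactivate the retinoblastoma protein and free the E2F factors, which switch on the genes for DNA synthesis. The MCM helicase is loaded by CDC6 and CDT1, is started together with the GINS complex, and unwinds the DNA ahead of polymerases held by PCNA, while ribonucleotide reductase and thymidylate synthase supply the nucleotides. Later, cyclins A and B with CDK1 drive mitosis, and the genes of that phase are commonly under a promoter element called CHR and CCAAT boxes, through which the DREAM and MuvB complexes and NF-Y act. OPCs leave this cycle as they differentiate into oligodendrocytes.

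The promoters of the members are shown because the letters in them differ between the role groups. Whether the letters bear on the changes in the results that follow was not tested. RefSeq promoters (GRCm38.p6, 250 bases before to 50 bases after the annotated start, 300 bases in all) were at hand for 31 of the 40 members and for 27025 genes in all. The set of promoters at hand had no entry under the names Gins1, Gins2, Mcm4, Ccna2, Ccnd1, Ccnd2, Ccne2, Aurkb and Kif20a. Letters of E2F, CHR and CCAAT type were searched on both strands: E2F (TTTCGCGC, TTTGGCGC, TTCGCGCC or TTTCCCGC, which can overlap one another), CHR (TTTGAA or TTCGAA) and the CCAAT box (CCAAT). E2F letters stood in 6 of 11 replication promoters (54.5%), in 2 of 9 cyclin/CDK promoters (22.2%) and in 0 of 11 mitosis promoters, against 2.54% of all genes of the table. CHR letters were distributed the other way, in 9 of 11 mitosis promoters (81.8%), 2 of 11 replication promoters (18.2%) and 2 of 9 cyclin/CDK promoters (22.2%), against 21.7% of all genes. A CCAAT box was found in 8 of 11 replication (72.7%), 5 of 9 cyclin/CDK (55.6%) and 10 of 11 mitosis promoters (90.9%), against 41.1% of all genes. The 6 replication genes with E2F letters were Mcm3, Mcm5, Mcm6, Mcm7, Cdc6 and Cdt1. These matches describe the letters alone and show no binding.

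**Figure D1:**
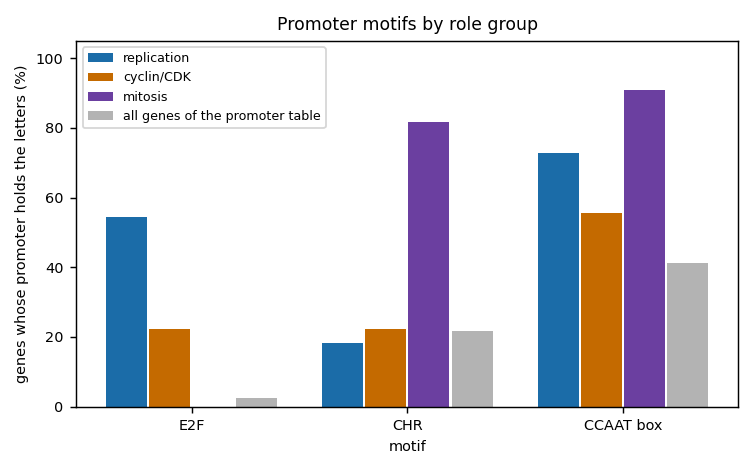
Share of genes (%, y axis) whose 300-base RefSeq promoter holds E2F, CHR or CCAAT letters on either strand (x axis), for the 11 replication, 9 cyclin/CDK and 11 mitosis genes with a promoter and for all 27025 genes of the table. The E2F bars are highest for replication genes (54.5%) and at 0 for mitosis genes, and the CHR bar is highest for mitosis genes (81.8%).

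Promoters of 4 members with values by library further on are printed 5′ to 3′ on the gene's strand, with the searched letters of either strand in capitals. Mcm5 (chr8:75109259-75109558, + strand) encodes an MCM helicase subunit and carries overlapping E2F letters at bases 98 to 109 and 3 CCAAT boxes. Top2a (chr11:99024140-99024439, − strand) encodes topoisomerase IIα, which untangles chromosomes at mitosis, and carries 4 CHR matches and 6 CCAAT boxes. Rrm2 (chr12:24708004-24708303, + strand), the regulated subunit of ribonucleotide reductase, has 1 CCAAT box, and Cdk6 (chr5:3343643-3343942, + strand) has none of the letters.
Mcm5: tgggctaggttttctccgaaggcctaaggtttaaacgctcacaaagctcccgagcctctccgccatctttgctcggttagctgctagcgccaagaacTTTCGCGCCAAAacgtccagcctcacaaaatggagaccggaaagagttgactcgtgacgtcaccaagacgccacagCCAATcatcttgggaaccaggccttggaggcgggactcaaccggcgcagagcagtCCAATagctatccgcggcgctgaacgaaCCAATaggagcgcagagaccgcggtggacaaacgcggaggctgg
Top2a: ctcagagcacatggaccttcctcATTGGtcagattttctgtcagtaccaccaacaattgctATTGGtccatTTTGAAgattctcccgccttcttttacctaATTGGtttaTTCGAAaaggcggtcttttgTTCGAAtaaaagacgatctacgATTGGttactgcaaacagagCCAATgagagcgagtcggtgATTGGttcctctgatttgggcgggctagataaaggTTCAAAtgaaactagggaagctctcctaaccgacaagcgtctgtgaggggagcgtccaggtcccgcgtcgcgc
Rrm2: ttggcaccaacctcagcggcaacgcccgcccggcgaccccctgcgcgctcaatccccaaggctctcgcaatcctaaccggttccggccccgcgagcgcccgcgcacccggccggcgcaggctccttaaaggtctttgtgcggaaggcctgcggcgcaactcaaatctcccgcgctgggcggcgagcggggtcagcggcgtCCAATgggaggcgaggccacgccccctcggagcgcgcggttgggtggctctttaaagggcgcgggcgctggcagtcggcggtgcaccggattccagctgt
Cdk6: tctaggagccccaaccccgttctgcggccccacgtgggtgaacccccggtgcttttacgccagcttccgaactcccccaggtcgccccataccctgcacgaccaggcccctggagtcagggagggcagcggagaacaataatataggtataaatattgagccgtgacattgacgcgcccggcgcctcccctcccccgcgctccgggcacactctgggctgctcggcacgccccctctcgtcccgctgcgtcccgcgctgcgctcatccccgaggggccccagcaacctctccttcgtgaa

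Reads in genes ranged from 19209063 to 52074652 over the 11 complete libraries. The fewest reads of any member in any of them was 70 (Gins1 and E2f1, both in Dexa replicate 4). How much counting error adds to the spread of such low values was not tested. All 40 members passed the filter on low counts. Levels are given as CPM (counts scaled to the reads of the library, after TMM scaling), and levels between genes as TPM, which also accounts for transcript length. OPC markers summed to between 3737 and 13877 CPM in every library, against 0.5 to 1.4 CPM for 7 microglial and 2.2 to 7.6 CPM for 5 vascular markers, with up to 3 of the microglial genes at 0 reads. Neuronal markers summed to 14.5 to 25.5 CPM and astrocyte markers to 448 to 1747 CPM, of which Slc1a3 and Aldoc held most, while Gfap averaged 0.609 CPM in Ctr. In bulk RNA, more dividing cells and more of these transcripts per dividing cell cannot be told apart.

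The members covered a wide range of levels. Mean TPM over the 11 libraries was highest for Cdk4 (349 TPM), the kinase partner of D-type cyclins, followed by Ccnd1 (159 TPM, cyclin D1), Top2a (136 TPM) and Pcna (95.9 TPM, the polymerase clamp). It was lowest for E2f1 (2.74 TPM), Cdk6 (4.60 TPM), Cdt1 (7.12 TPM) and Cdc6 (7.42 TPM). Among D-type cyclins, the order was Ccnd1 (159 TPM), Ccnd2 (69.6 TPM) and Ccnd3 (27.0 TPM), and Cdk4 stood far above Cdk6 in every library. Transcripts annotated as non-coding took part of the reads in some genes. The protein-coding share was 34.0 to 42.9% for Tyms, thymidylate synthase, 44.4 to 83.6% for Cdt1 and 50.8 to 62.3% for Cdk4.

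The first comparison asked how IFN-γ changed these genes relative to untreated OPCs. All 40 members had a fitted change above zero, and 34 of them rose (edgeR quasi-likelihood test with the litter as a block, Benjamini-Hochberg adjusted p under 0.05), while 0 fell. Among all 18386 genes tested, 8498 had a fitted change above zero, 15.1% were called higher and 15.9% lower. The median log2 fold change was 0.53 over the members and -0.03 over all genes tested. By role, 14 of 14 replication genes rose (median 0.58), 8 of 13 cyclin/CDK genes (median 0.45) and 12 of 13 mitosis genes (median 0.56). The 6 members that did not pass the test were Cdk2, Cdk4, Ccnb2, Ccnd3, Ccne2 and Mki67.

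These calls rested on pairing the libraries by litter. Without the block, 1 of the 40 members, Cdk6, was called by edgeR (5.97% of all genes were called higher in that fit). DESeq2 without the block also called 1, in a fit that called 2328 of 18386 genes in either direction. Leaving out all libraries of 1 litter left 16 members called without litter 2, 17 without litter 3, 15 without litter 4 and 37 without litter 1, in fits that called 10.5%, 12.5%, 11.6% and 15.9% of all genes higher, in that order. A single omitted library lowered the count furthest for Ctr replicate 3 and IFNg replicate 3 (17 each), Ctr replicate 4 (18), IFNg replicate 4 (19) and Ctr replicate 2 (22), where 11.9 to 13.5% of all genes were called higher. Fits of 2 litters each were added after the data were seen. Litters 1 and 2 alone gave 10 called members (9.31% of all genes called higher), with 35 of 40 above zero. With litters 3 and 4, which share a title prefix, all 40 were above zero. That last fit held 1 Dexa library, so its calls are not given.

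**Figure D2:**
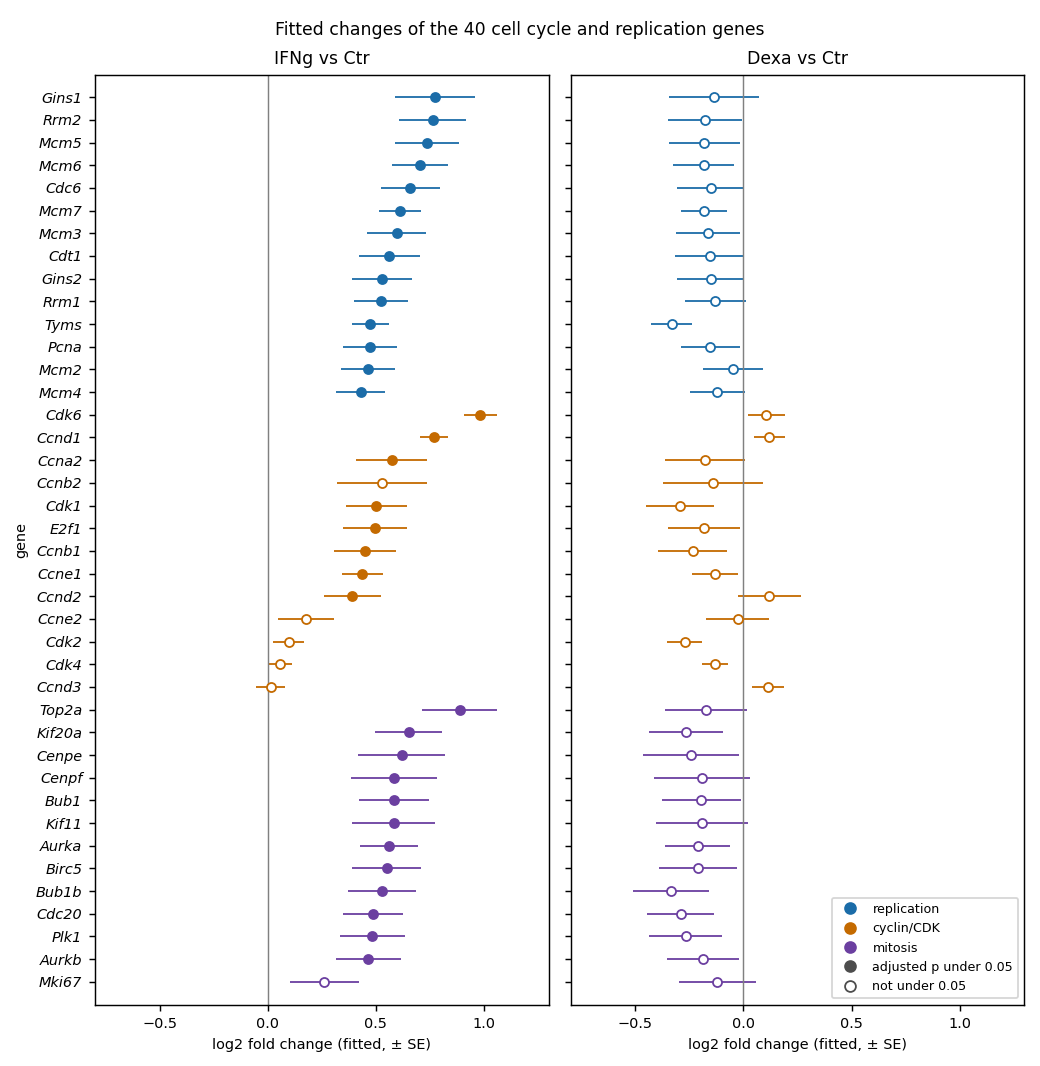
Fitted log2 fold change (x axis, ± SE) of each of the 40 members (y axis, ordered by role and size) for IFNg against Ctr (4 and 4 libraries) and Dexa against Ctr (3 and 4 libraries). Filled points passed an adjusted p of 0.05: 34 members do so at left, all above zero, and 0 at right, where 36 of 40 lie below zero.

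Among the replication genes, the largest IFN-γ changes were those of Gins1, Rrm2 and Mcm5, which serve the start of replication forks, deoxynucleotide supply and DNA unwinding. Gins1 (ENSMUSG00000027454), a GINS subunit, measured 17.3, 13.4, 6.31 and 5.34 CPM in Ctr litters 1 to 4, and 18.9, 21.4, 14.3 and 11.9 CPM in the IFNg litters in that order. It was higher with IFN-γ in every litter, although the 2 groups overlapped, and in Ctr litters 1 and 2 were above litters 3 and 4. Its fitted log2 change was 0.77 ± 0.18 (SE, 1.71-fold, edgeR adjusted p = 0.0092). Rrm2 (ENSMUSG00000020649) was at 208, 159, 61.0 and 68.6 CPM in Ctr and at 248, 222, 140 and 145 CPM in IFNg. The IFNg libraries of litters 3 and 4 thus came close to the Ctr library of litter 2, and the fitted log2 change was 0.76 ± 0.16 (SE, 1.70-fold, edgeR adjusted p = 0.0040).

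Mcm5 (ENSMUSG00000005410), whose promoter carries the E2F letters printed above, gave 258, 207, 80.6 and 78.5 CPM in Ctr and 314, 281, 192 and 151 CPM in IFNg. The change was 0.74 ± 0.15 on the log2 scale (SE, 1.66-fold, edgeR adjusted p = 0.0038), and within litters it ran from 0.28 (litter 1) to 1.25 (litter 3). Pcna (ENSMUSG00000027342), the most abundant replication member per length, measured 287, 213, 82.9 and 101 CPM in Ctr and 299, 243, 157 and 165 CPM in IFNg. In litter 1 it was nearly level (log2 ratio 0.06), and its fitted change was 0.47 ± 0.12 (SE, 1.39-fold, edgeR adjusted p = 0.016). An annotated pseudogene, Pcna-ps2, held reads equal to 5.09 to 19.9% of those of Pcna, so part of these reads may be assigned to either copy.

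The remaining replication members rose by log2 changes between 0.43 (Mcm4) and 0.70 (Mcm6). The 6 helicase subunits Mcm2, Mcm3, Mcm4, Mcm5, Mcm6 and Mcm7 all rose, and so did the loaders Cdc6 (0.66) and Cdt1 (0.56), the second GINS gene Gins2 (0.53), the large ribonucleotide reductase subunit Rrm1 (0.52) and Tyms (0.47). Every replication gene was above zero in all 4 litters.

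The cyclin/CDK group was the least uniform. Cdk6 (ENSMUSG00000040274), a kinase of early G1, measured 33.2, 46.5, 36.3 and 30.4 CPM in Ctr, 34.0, 46.2 and 37.5 CPM in Dexa litters 1, 2 and 4, and 58.8, 82.0, 73.3 and 74.5 CPM in IFNg. Every IFNg library lay above every Ctr and Dexa library, and the within-litter log2 ratio to Ctr was 0.82, 0.82, 1.01 and 1.29. Its log2 change of 0.98 ± 0.08 (SE, 1.98-fold, edgeR adjusted p = 6.0e-06) was the largest of the 40 members, and it was also called without the block (0.98 ± 0.16, edgeR adjusted p = 0.0023). Ccnd1 (ENSMUSG00000070348), the cyclin partner of CDK4 and CDK6, was at 778, 689, 409 and 367 CPM in Ctr and at 1398, 1010.2, 754 and 632 CPM in IFNg. It rose by similar amounts in each litter (log2 ratios 0.85, 0.55, 0.88 and 0.78), which gave 0.77 ± 0.07 (SE, 1.70-fold, edgeR adjusted p = 1.2e-05).

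Ccna2 (ENSMUSG00000027715), cyclin A2 of S phase and G2, was at 277, 212, 125 and 99.1 CPM in Ctr and at 275, 281, 209 and 209 CPM in IFNg. The log2 ratio was -0.01 in litter 1 and 1.07 in litter 4, and the fitted change was 0.57 ± 0.17 (SE, 1.49-fold, edgeR adjusted p = 0.024). Cdk4 (ENSMUSG00000006728) stayed within a narrow band, at 514, 485, 437 and 455 CPM in Ctr and 492, 494, 501 and 476 CPM in IFNg. Its log2 change was 0.06 ± 0.06 (SE, edgeR adjusted p = 0.50), an interval far below the changes of Cdk6 and Ccnd1. Ccnd3 (log2 change 0.01 ± 0.07), Cdk2 (0.10 ± 0.07) and Ccne2 (0.18 ± 0.13) were likewise not called, and Ccnd3 lay below zero in litters 2 and 4.

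Of the other genes of this group, E2f1 (0.50), Cdk1 (0.50), Ccnb1 (0.45), Ccne1 (0.44) and Ccnd2 (0.39) rose. Ccnb2, a cyclin of mitosis, had a log2 change of 0.53 ± 0.21 (SE, edgeR adjusted p = 0.079), and the annotated pseudogene Ccnb2-ps held reads equal to 11.6 to 67.0% of those of Ccnb2, so its values are uncertain. The 2 cyclin E genes differed in their values, with Ccne1 above zero in all 4 litters and Ccne2 at -0.36 in litter 1. This difference was not tested.

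In the mitosis group, Top2a (ENSMUSG00000020914) had both the highest level and the largest change. It measured 883, 711, 458 and 334 CPM in Ctr, 829, 620 and 267 CPM in Dexa litters 1, 2 and 4, and 1087, 1184, 911 and 896 CPM in IFNg. The lowest IFNg library exceeded the highest Ctr library, as it did for Cdk6, and how many of all genes do so was not counted. For Top2a the fitted log2 change was 0.89 ± 0.17 (SE, 1.85-fold, edgeR adjusted p = 0.0030). Kif20a (ENSMUSG00000003779), a kinesin of cell division, was at 132, 100.3, 64.8 and 49.0 CPM in Ctr and at 145, 143, 115 and 103 CPM in IFNg, a log2 change of 0.65 ± 0.15 (SE, 1.57-fold, edgeR adjusted p = 0.0090). It was higher with IFN-γ in every litter.

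Cenpe (ENSMUSG00000045328), a kinetochore motor, measured 191, 146, 121 and 80.3 CPM in Ctr and 190, 212, 178 and 194 CPM in IFNg. The 4 IFNg libraries were within 1.20-fold of each other, against 2.37-fold for Ctr, and the log2 change was 0.62 ± 0.20 (SE, 1.54-fold, edgeR adjusted p = 0.039). The kinetochore gene Cenpf (0.58), the checkpoint kinases Bub1 (0.58) and Bub1b (0.53), the spindle motor Kif11 (0.58), the kinases Aurka (0.56), Plk1 (0.48) and Aurkb (0.46), the survival and spindle factor Birc5 (0.55) and the anaphase activator Cdc20 (0.49) also rose. Mki67, the gene of the proliferation marker Ki-67, was the exception. Its log2 change was 0.26 ± 0.16 (SE, edgeR adjusted p = 0.25), and its within-litter ratios ran from -0.21 in litter 1 to 0.78 in litter 4.

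**Figure D3:**
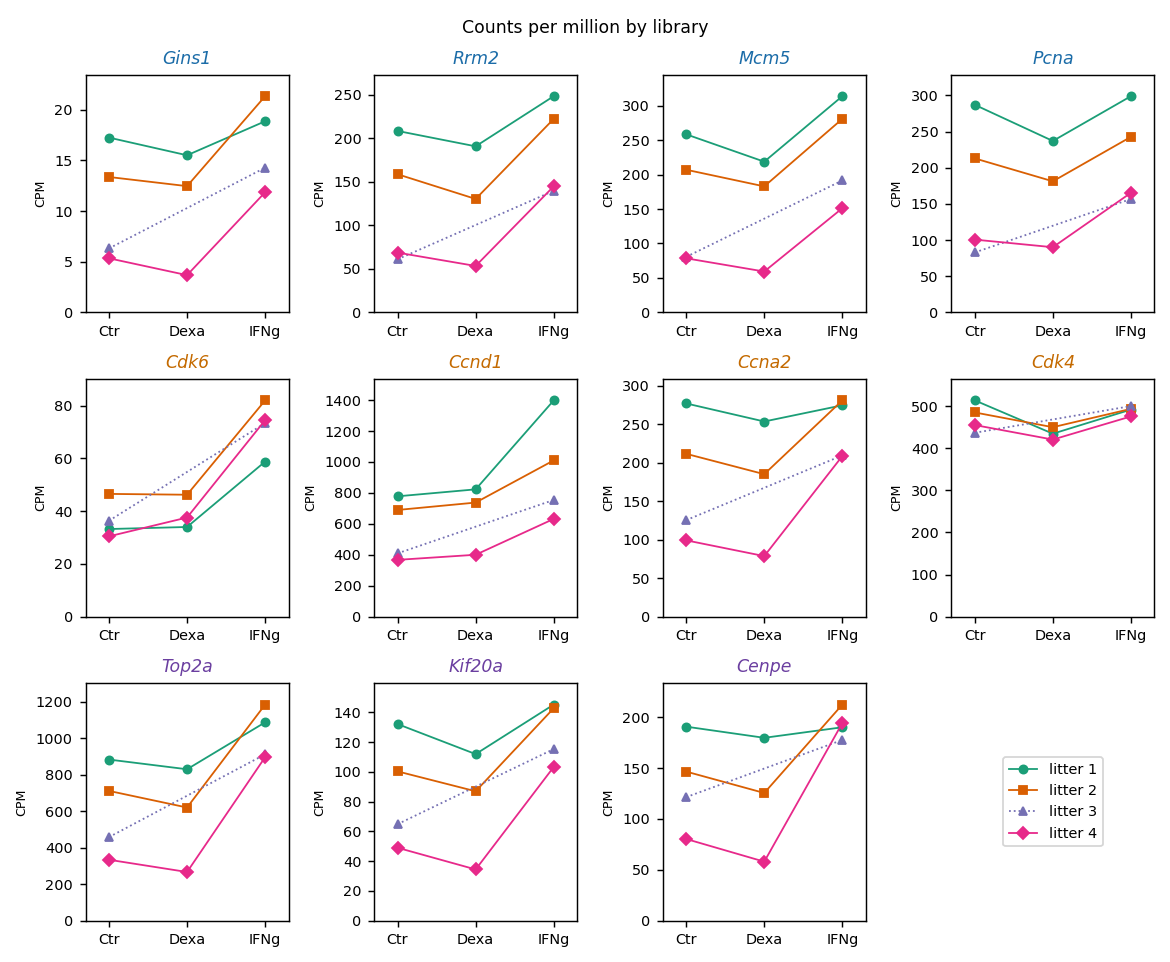
CPM (y axis, from 0) of 11 members in Ctr, Dexa and IFNg (x axis), with the libraries of 1 litter joined by a line (dotted for litter 3, which has no Dexa value here). Lines drop from Ctr to Dexa in most panels and climb to IFNg, with Ctr levels of litters 3 and 4 below those of litters 1 and 2, except for Cdk6 and for the nearly level Cdk4.

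The size of the IFN-γ change differed from litter to litter. The median log2 ratio of the 40 members was 0.06 in litter 1, 0.35 in litter 2, 0.81 in litter 3 and 0.86 in litter 4, while the median over all genes tested lay between -0.04 and -0.0021 in each. Replication genes were above zero in every litter, with medians of 0.23, 0.36, 1.08 and 0.76. Mitosis genes had a median of -0.0045 in litter 1, where 6 of 13 were above zero, and of 1.00 in litter 4. Of the 40 members, 25 were above zero in all 4 litters and 14 in 3 of 4, and the highest of a member's 4 ratios fell in litter 3 or 4 for all 40. How many of all genes tested do so was not counted, and the members varied together, so they are not 40 separate results. A litter held 1 library a group, so whether the litters' responses differ could not be tested gene by gene.

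**Figure D4:**
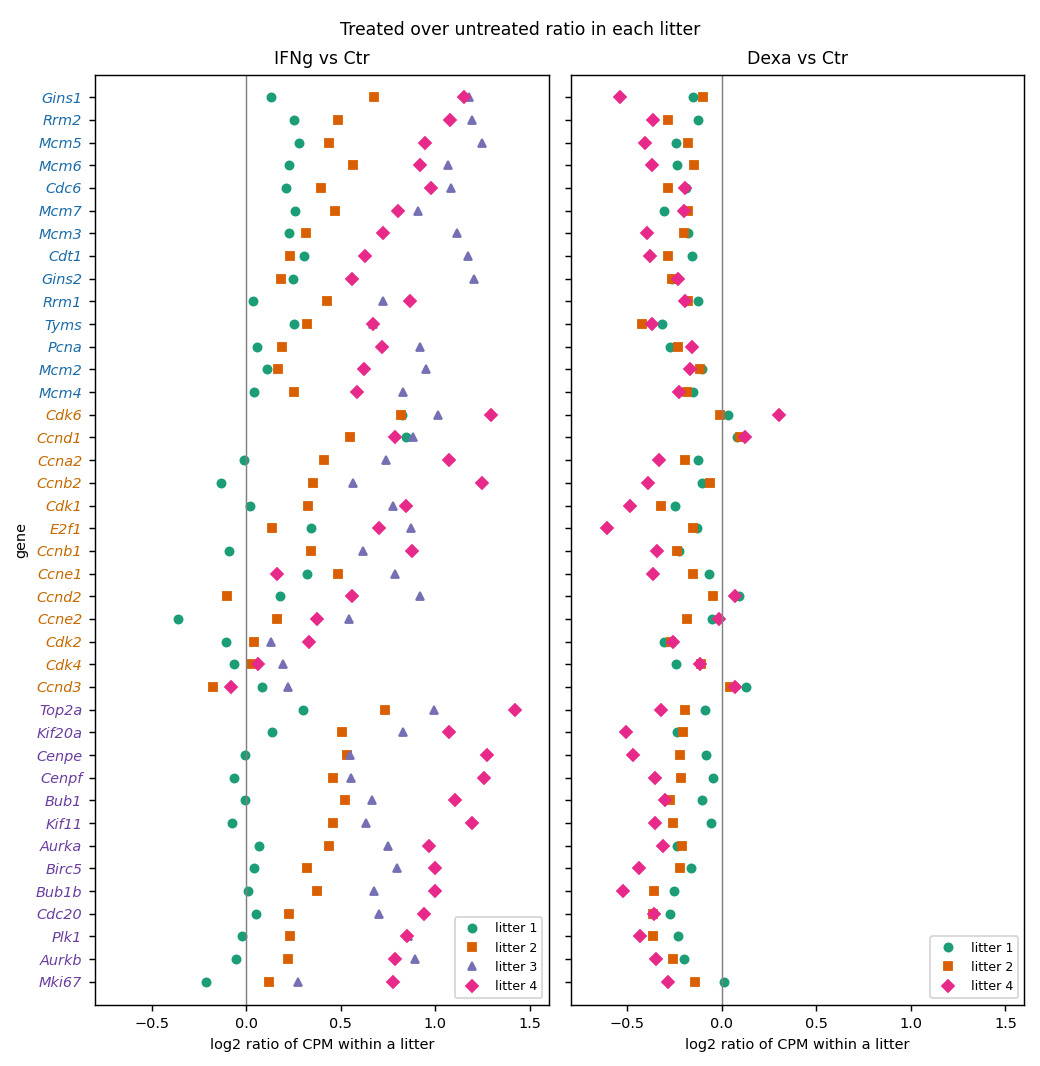
Log2 ratio of CPM between treated and Ctr library of the same litter (x axis) for each member (y axis, names coloured by role: replication blue, cyclin/CDK orange, mitosis purple). For IFNg the points of litter 1 lie nearest zero (median 0.06) and those of litters 3 and 4 farthest (medians 0.81 and 0.86), except for genes such as Ccnd1 and Cdk4, and for Dexa the 3 litters lie mostly below zero.

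Libraries of different litters differed strongly in these genes. Litters 3 and 4 share a title prefix and the way of isolation is not given per library, so litter, preparation and isolation cannot be told apart. In the same fit, 37 of 40 members differed between litters (edgeR adjusted p under 0.05), against 45.4% of all genes tested, and the 3 not called were Cdk4, Ccnb2 and Ccnd3. The range between the highest and lowest litter had a median of 1.19 on the log2 scale, from 0.09 for Cdk4 to 1.97 (3.91-fold) for Cdt1, against a median of 0.52 over all genes tested. Litters 3 and 4 were below litter 1 for every member except Cdk6, which was higher than in litter 1 by 0.47, 0.22 and 0.13 (log2) in litters 2, 3 and 4.

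With IFN-γ the litters lay closer together. The highest over the lowest library was narrower in IFNg than in Ctr for 39 of 40 members, against 53.0% of all genes tested, and the exception was Ccnd1. The median of this ratio over the members was 2.70-fold in Ctr and 1.59-fold in IFNg, whereas over all genes tested it was 1.53-fold and 1.49-fold. Mitosis genes narrowed from 2.69-fold to 1.38-fold and replication genes from 3.07-fold to 1.85-fold. The 13 mitosis genes together were at 3627, 2876, 1963 and 1393 CPM in Ctr litters 1 to 4 and at 3682, 3862, 3066 and 3004 CPM in IFNg. The 14 replication genes summed to 2425, 1898, 886 and 891 CPM in Ctr and to 2725, 2468, 1734 and 1569 CPM in IFNg. These are descriptions, and no test of the narrowing was made.

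**Figure D5:**
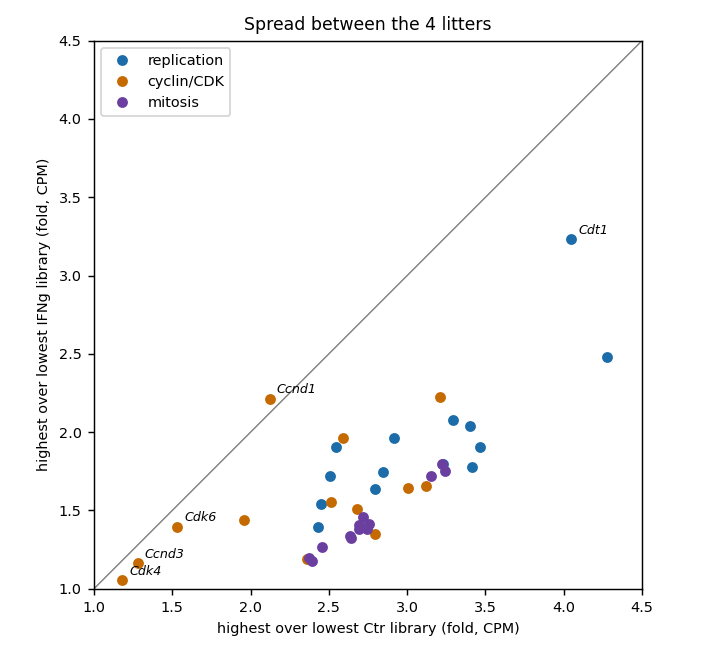
Highest over lowest CPM among the 4 Ctr libraries (x axis, fold) and among the 4 IFNg libraries (y axis, fold) for each of the 40 members, coloured by role, with the line of equal spread. Below the line lie 39 of the 40 points, with medians of 2.70-fold for Ctr and 1.59-fold for IFNg, and only Ccnd1 lies above it.

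Other measures moved with the litters. Genes of differentiating oligodendrocytes, 7 in all, summed to 152, 525, 1041 and 1551 CPM in Ctr litters 1 to 4, the reverse of the order of the mitosis sums, to 173, 567 and 1587 CPM in Dexa litters 1, 2 and 4, and to 103, 342, 453 and 447 CPM in IFNg. In IFNg against Ctr, 3 of these 7 fell and 0 rose (median log2 change -1.04), among them Myrf (-1.77 ± 0.25), a regulator of myelin genes, and Bcas1 (-1.04 ± 0.14). Of 7 OPC markers 5 fell and 0 rose, among them Gpr17 (-2.10 ± 0.16), of committed precursors, and Pdgfra (-0.62 ± 0.14), the receptor of PDGFaa. Over all genes tested 15.9% were called lower and 15.1% higher. The 7 OPC markers summed to 5360, 9178, 12613 and 12154 CPM in Ctr, to 5987, 10287 and 13877 CPM in Dexa and to 3737, 6103, 8688 and 8614 CPM in IFNg, lowest in litter 1 in each group. Astrocyte markers, 6 in all, summed to 1373, 1114, 448 and 720 CPM in Ctr, to 1747, 1502 and 994 CPM in Dexa and to 1442, 1250, 949 and 1261 CPM in IFNg. Each of these 6 differed between litters, against 45.4% of all genes, and with IFN-γ 3 rose and 2 fell (median log2 change 0.55). Mitochondrial transcripts took 2.61 to 3.20% of reads in litters 1 and 2 and 3.71 to 5.09% in litters 3 and 4. The part of these in the members' values was not tested.

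Members varied together across the 11 libraries. The median Pearson correlation of log2 CPM between pairs was 0.98 among replication genes, 0.97 among mitosis genes and 0.95 between these 2 groups. After group and litter were subtracted it was 0.94, 0.97 and 0.85. Among cyclin/CDK genes it was 0.71 and 0.51, and with these terms subtracted the median with the other members was lowest for Ccnd3 (0.07), Ccnd1 (0.14) and Ccne1 (0.33). The libraries share litters, treatments and depth, so these values describe the 11 libraries and carry no p.

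The second comparison asked how dexamethasone changed the members. In the fit with all 3 groups, 36 of 40 lay below zero, as did 9534 of all 18386 genes tested. Of the members, 0 were called lower and 0 higher, against 0.256% and 1.24% of all genes tested. DESeq2 with and without the block also called 0, in fits that called 459 and 101 of all genes. By edgeR, 2 members had an unadjusted p under 0.05, as had 2004 of all 18386 genes tested. They were Tyms (-0.33 ± 0.10, edgeR adjusted p = 0.17) and Cdk2 (-0.27 ± 0.08, edgeR adjusted p = 0.19). The medians were -0.15 for replication, -0.13 for cyclin/CDK and -0.21 for mitosis genes. The 4 members above zero were Ccnd1 (0.12), Ccnd2 (0.12), Ccnd3 (0.11) and Cdk6 (0.11), that is, the 3 D-type cyclins and 1 of their kinases. Their changes were not past the test.

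Within litters, the direction was shared by most members. Of the 40 members, 35 were below zero in all 3 litters with a Dexa library, and how many of all genes tested were so was not counted. The median ratio of the members was -0.15 in litter 1, -0.20 in litter 2 and -0.35 in litter 4, against -0.01 in each litter over all genes tested. Top2a was at 883, 711 and 334 CPM in Ctr litters 1, 2 and 4 and at 829, 620 and 267 CPM in Dexa, and Bub1b had the largest fitted decrease (-0.33 ± 0.18, edgeR adjusted p = 0.55). Gins1 was at 15.5, 12.5 and 3.68 CPM in Dexa, Mcm5 at 219, 183 and 59.3 CPM and Rrm2 at 191, 130 and 53.3 CPM, each below the Ctr library of its litter. Ccna2 at 254, 185 and 78.6 CPM, Kif20a at 112, 86.9 and 34.4 CPM, Cenpe at 180, 125 and 58.0 CPM, Pcna at 237, 181 and 90.1 CPM and Cdk4 at 435, 450 and 421 CPM were also each below their Ctr library. Ccnd1 at 823, 737 and 400 CPM was above it in each.

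The calls depended on whether the IFNg libraries were in the fit. Without the IFNg libraries, Ctr replicate 3 had no partner in its block, so only the pairs of litters 1, 2 and 4 informed the contrast. With the 4 Ctr and 3 Dexa libraries alone, 26 of 40 members fell and 0 rose (edgeR with the block), against 4.40% of genes called lower in that fit. They were 11 of 14 replication genes (median -0.24), 4 of 13 cyclin/CDK genes (median -0.16) and 11 of 13 mitosis genes (median -0.25). The median SE of the 40 members was 0.05 there and 0.16 in the fit with 3 groups, where the shared spread also covers the IFNg libraries and where 9 members had a fitted value above all 3 of their own within-litter ratios. The incomplete library of Dexa replicate 3 lists 13 members whole, and all 13 were below its litter's Ctr library, with log2 ratios from -0.57 (Cenpf) to -0.02 (Cdk4). How many of the other genes it lists were below was not counted. Over the genes it lists whole, 0 of these 13 were called with all 12 libraries (edgeR), where 0.447% of the genes tested were called lower. With the 4 Ctr and 4 Dexa libraries alone 9 of 13 fell, against 2.25% of the genes in that fit, by log2 changes between -0.24 (Cdc6) and -0.37 (Cdk1).

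IFNg and Dexa were also set against each other, over the same IFNg libraries as the first comparison. Here 35 of 40 members were higher in IFNg and 0 lower (edgeR with the block), against 16.4% and 16.7% of all genes tested. Above zero lay 39 of 40 members and 8644 of all 18386 genes tested. The medians were 0.78 for replication, 0.65 for cyclin/CDK and 0.78 for mitosis genes. Every IFNg library lay above every Dexa library for Cdk4, Cdk6 and Top2a, and how many of all genes separate so was not counted. Top2a had the largest change (1.06 ± 0.20, edgeR adjusted p = 0.0022), and Cdk4 passed the test by a small amount (0.19 ± 0.06, edgeR adjusted p = 0.042). The 5 members not called were Ccnb2, Ccnd2, Ccnd3 (-0.10 ± 0.07), Ccne2 and Mki67. Without the block 1 member was called, Cdk6, in a fit that called 5.46% of all genes higher, and the count was 18 without litter 2 and 16 without litter 4, where 9.75% and 11.7% of all genes were called higher.

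Other genes of the same pathways were read against the 15.1% of all genes called higher and 15.9% called lower with IFN-γ. Of 35 further replication genes, 29 rose with IFN-γ and 0 fell (median 0.44), led by Chaf1b (0.88 ± 0.15), a histone chaperone subunit of replicating chromatin, Cdc45 (0.75 ± 0.15), a part of the replicative helicase, and Pola2 (0.74 ± 0.10), a subunit of the primase complex. Of 37 further mitosis genes, 23 rose and 0 fell (median 0.53), led by Melk (0.78 ± 0.17), Mybl2 (0.75 ± 0.14), a MuvB partner, and Ndc80 (0.73 ± 0.19), a kinetochore subunit. Of 21 further genes of G1/S control, 7 rose and 2 fell (median 0.12), led by the pocket protein gene Rbl1 (0.76 ± 0.13), Fbxo5 (0.57 ± 0.15) and E2f2 (0.54 ± 0.14). Among 7 CDK inhibitor genes, whose products hold the cycle back, 4 rose and 1 fell. Cdkn1a, which encodes p21, rose by 1.23 ± 0.11 and Cdkn2b by 0.86 ± 0.12, while Cdkn1c fell by 0.99 on the log2 scale (SE 0.22). None of these 4 lists had a gene called in Dexa against Ctr in the fit with 3 groups, which called 0.256% of all genes lower and 1.24% higher. In that comparison 1 gene each of further replication, further mitosis and CDK inhibitor genes had an unadjusted p under 0.05 by edgeR. Of all 18386 genes tested, 2004 did.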

How the data were processed

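Total RNA-seq libraries from cultured mouse OPCs (12, 4 per group) were used. Reads were trimmed and quantified per transcript by the authors with Salmon 0.8.2 (version also in the submitters' processing notes), and the deposited tables give estimated counts, TPM and an effective length per transcript. Other deposited tables hold DESeq2 comparisons by the authors (fold changes and p-values) and were not used. Transcripts matched GENCODE M21 (GRCm38) with 0 unmatched. Estimated counts were summed per gene and rounded. The deposited table of Dexa replicate 3 held 47855 of 141862 transcripts and 13 of the 40 members whole, so it entered only fits over the 19130 genes it lists whole.

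The 18386 genes that reached 10 counts in 3 or more of the 11 libraries were tested with edgeR 4.0.16 (R 4.3.3): TMM scaling, quasi-likelihood test, group and replicate number as terms, Benjamini-Hochberg adjustment over all genes, threshold 0.05. The study names DESeq2 without a pairing term for this experiment, and DESeq2 1.42.0 was an alternative. The SE is the log2 fold change over the root of the F statistic. Within-litter ratios are of log2 CPM with a prior count of 0.5. The labels give 4 litters and number the replicates 1 to 4 in each group, and the number was used as the litter. All 10 pairs of libraries with the same number deviated together from their group means (r from 0.39 to 0.68). Pairs with different numbers ran from -0.74 to 0.45, highest for Ctr replicate 3 with Dexa replicate 4. The ranges thus overlapped, so these values alone do not fix which libraries share a litter. Libraries of a group differed by far more than counting noise (chi-square per degree of freedom from 23.6 to 226), so none was a duplicate. Where brains were pooled, a replicate is a pool. Counts are of reads, not of molecules, and SEs cover the spread between these libraries. Depth ran from 19209063 to 52074652 reads in genes.

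Members and lists were chosen with earlier results of these data known. Values by library are given, in each role group, for the 3 members with the largest IFNg change and the one with the highest TPM. The 3 called genes with the largest change are named for each further pathway list. Dexa changes are named for the members above zero, those with an unadjusted p under 0.05 and the one with the largest decrease. This choice for Dexa, and that of the marker genes named, was made after their values were seen. Alternatives were no block, DESeq2, other scalings, other filters, length-scaled TPM, 2 groups in the fit, and leaving out libraries or litters. Fits over litters 1 and 2 or 3 and 4 alone, and over the Ctr and Dexa libraries for the incomplete table, were added after seeing the data. The scripts were tested on simulated counts.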

Additional observations from a re-analysis of the deposited data

How the results depend on the processing

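For IFNg against Ctr, where 34 members were called, the count was 31 to 36 under DESeq2 with the block, RLE scaling, no filter, at least 50 counts in every library and length-scaled TPM, and 28 to 29 with library size alone, upper quartile scaling and 2 groups in the fit. Of all genes, the former settings called 4387 (of 11806) to 6086 (of 33403) in either direction, and the latter 4787 (of 18052) to 6106 (of 18386). The members' count was 1 without the replicate block, by edgeR and by DESeq2, and 10 with litters 1 and 2 only. Those fits called 1555, 2328 and 3429 of all genes, in that order. The block changed the calls of IFNg against Dexa likewise (35 to 1 by both tools) and none of Dexa against Ctr (0 in each). Without the block, edgeR and DESeq2 called 1576 and 2372 of all genes for IFNg against Dexa, and 24 and 101 for Dexa against Ctr. Leaving out a library or litter gave 15 to 37 for IFNg against Ctr, 16 to 38 for IFNg against Dexa, 0 for Dexa against Ctr and 34 to 38 for the litter differences. All genes called in these fits numbered 3361 to 5952, 3248 to 6132, 38 to 399 and 4284 to 8284, in that order. For Dexa against Ctr the count was 3 with no filter on low counts and 26 with 2 groups in the fit, all lower, and 9 of the 13 members of the incomplete table with 4 Ctr and 4 Dexa libraries. Those fits called 642 of 33403, 1541 of 17776 and 371 of 6264 genes in either direction.

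Role medians kept their sign for IFNg against Ctr (0.14 to 0.93) and IFNg against Dexa (0.36 to 1.42), while those of Dexa against Ctr ran from -0.43 to 0.03. The -0.43, for mitosis genes, came from the fit of litters 3 and 4, which held 1 Dexa library. Changes of sign touched values that were not called in the fit with 3 groups. Of the members named below, Rrm2, Ccna2, Top2a and Cenpe were called lower for Dexa with 2 groups in the fit. For IFNg against Ctr, Ccnd3 was at -0.018 with library size alone, -0.028 with upper quartile scaling, -0.0022 with no filter on low counts, and -0.057 (without replicate 3) to 0.087 (without replicate 2) when a library or litter was left out. With litters 1 and 2 only, Ccnd3 was at -0.044, Cdk2 at -0.030, Cdk4 at -0.017, Ccne2 at -0.083 and Mki67 at -0.037. For Dexa against Ctr, 10 of 40 members turned above zero without the block, among them Gins1 (0.0046, DESeq2 0.0049) and Rrm2 (0.0078, DESeq2 0.012). Leaving out a library moved Gins1 from -0.32 (without Dexa replicate 1) to 0.044 (without Dexa replicate 4), and 0.019 without Ctr replicate 1. Between the same omissions of a Dexa library, Ccna2 ran from -0.35 to 0.011, Top2a from -0.37 to 0.025 and Cenpe from -0.50 to 0.0034. The cause of these shifts was not tested, except that 2 groups in the fit leaves out the IFNg libraries and lowers the SE. With 1 library per litter and group, differences between litters in response could not be tested.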
